A study of Zea mays with 48 samples.

Results

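A row of ZmCCA1 ChIP-seq peaks on maize chromosome 1 surrounds GRMZM2G448142, a gene that the study describes as encoding an ATP synthase β-subunit, and GRMZM2G448151, a short gene that lies inside it on the opposite strand. The row was taken as all peaks that start in a window of 200 kb around both genes in the 4 deposited peak lists. It holds 51 of 10136 peaks, namely 13 of 3364 in B73 and 13 of 2102 in Mo17, with 12 of 2796 in BM and 13 of 1874 in MB. The window and its genes were chosen from measured values of these same lists, namely the peaks called there and their log2(ChIP/Input) at the 3 time points, so that the levels below are a description and no test was made on them.

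ZmCCA1 binding was measured in the aerial tissues of seedlings 5 days old, of 2 inbreds, B73 and Mo17, and both F1 hybrids between them, BM (B73 as female parent, Mo17 as male) and MB (Mo17 as female parent, B73 as male). Plants were sampled at ZT3, ZT9 and ZT15, that is, hours after dawn in a day of 16 h of light, so that all 3 time points fell in the light. Each combination of genotype and time had 2 biological replicates, which made 24 ChIP and 24 input libraries. The antibody was raised against the N-terminal MYB domain of ZmCCA1 proteins. By the study's account it could detect ZmCCA1b and a long form of ZmCCA1a, while the short ZmCCA1a studied there lacks the domain. The values do not separate ZmCCA1b from such a long form. Seedling tissue is a mixture of cell types, and fewer cells with binding and weaker binding per cell cannot be told apart in it.

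CCA1 is a MYB-type transcription factor of the central circadian oscillator in plants, known above all from Arabidopsis, where it is most abundant around dawn and binds the evening element and related A/T-rich motifs in promoters of clock and output genes. ATP synthase is the rotary enzyme that makes ATP from a proton gradient, and its β-subunits carry the catalytic sites. A β-subunit is encoded by the plastid genome for the chloroplast enzyme and by the nucleus for the mitochondrial enzyme. Plant nuclear chromosomes also carry inserted stretches of organellar DNA, and whether the row lies in such a stretch was not tested. A role for GRMZM2G448151 and for the other genes of the row is not given in the sources used here.

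The study followed the transcript of GRMZM2G448142 by quantitative RT-PCR, and its primer pair is the only sequence of the locus in the sources used here. It is shown whole and in lower case because it identifies the transcript that the study assigned to the gene.
GRMZM2G448142 forward: tctcgacaatacgaagcaatagg
GRMZM2G448142 reverse: tgcttagtgtgtgactcgttag
The forward primer has 23 bases and the reverse primer 22. The study reported that ZmCCA1 binding in the hybrids was shifted towards ZT3 relative to the inbreds, over its peaks and target genes. It displayed its ChIP-seq signal at GRMZM2G448142 for ZT3, ZT9 and ZT15 among the target genes with such a shift. It listed this gene among a few exceptions to its link between binding and expression, with similar transcript levels in hybrids and inbreds. Transcript levels and motifs under the peaks were not analysed here.

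The peaks fell at 13 positions, numbered here from left to right along the chromosome, and 12 of the 13 had a peak in every list. The exception was position 5, which had a peak in B73, Mo17 and MB and none in BM. The starts of a position differed between lists by 5 to 161 bp and the ends by 4 to 199 bp. In B73 the row ran from 203882551 to 203931329, a span of 48778 bp, and peaks covered 38.2% of it. Coordinates are those the authors wrote, on AGPv2 for B73. Stretches of 200 kb opened rightward at each peak of a list held a median of 1 peak. Of these stretches, 1997 of 2102 in Mo17 and 3277 of 3364 in B73 held fewer peaks than the row. Such stretches overlap, and those opened at later peaks of the row count among the ones with fewer, so these are not counts of separate windows. The row was not the most crowded place in any list, where the highest count was 39 in BM and MB, 47 in B73 and 50 in Mo17.

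**Figure D1:**
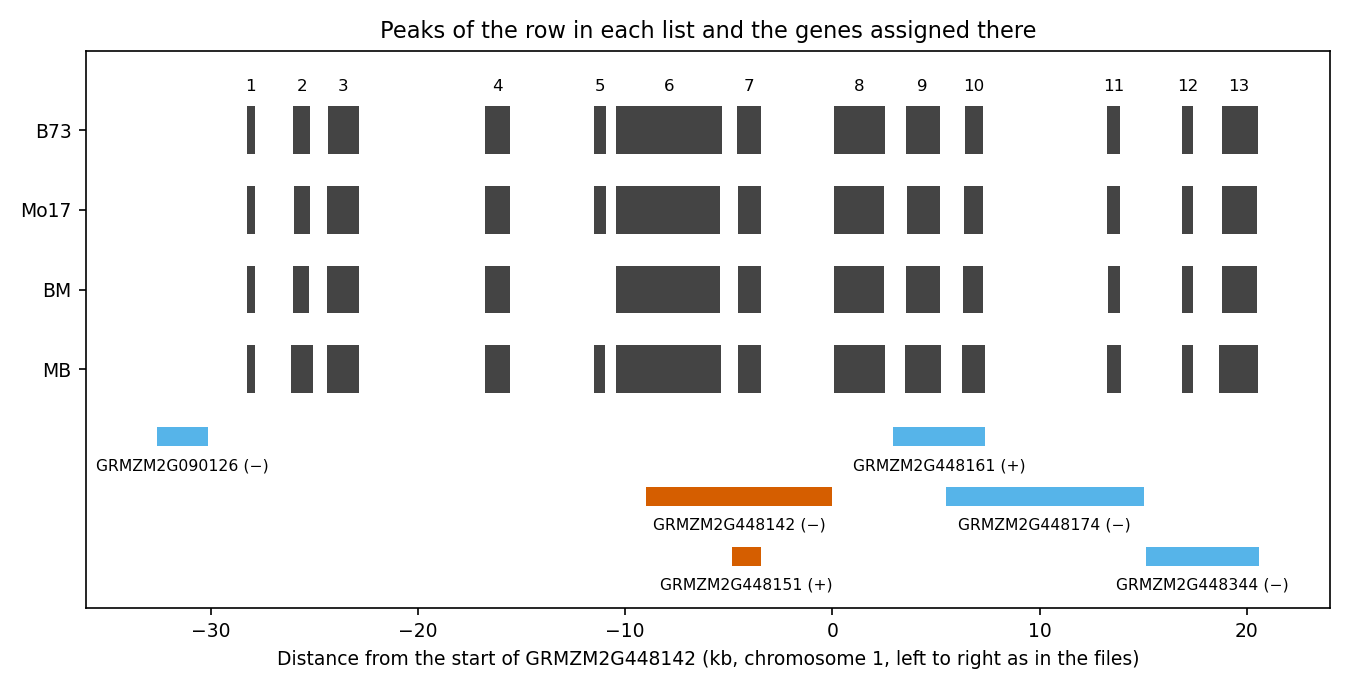
Peaks of the row in B73, Mo17, BM and MB (dark bars, numbered 1 to 13) and the extents of the assigned genes (orange for GRMZM2G448142 and GRMZM2G448151, blue for the others, with the strand in parentheses), against distance in kb from the start of GRMZM2G448142. The 4 lists hold the same positions apart from position 5, which has no peak in BM, and position 6 is the widest peak.

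GRMZM2G448142 extends over 9019 bp, from 203901792 to 203910810 on the minus strand, and GRMZM2G448151 over 1392 bp, from 203905970 to 203907361 on the plus strand. The whole extent of GRMZM2G448151 lies within GRMZM2G448142. Each peak carries at most 1 gene in the lists, which at this locus divides peaks between overlapping genes. The authors assigned positions 5 and 6 to GRMZM2G448151 and positions 7 and 8 to GRMZM2G448142. Position 6 is a broad peak of 5000 to 5107 bp, and between 71.5% and 72.1% of it lies in the 3′ part of GRMZM2G448142, while its right edge ends 494 to 601 bp before the start of GRMZM2G448151. Position 7, of 1098 to 1129 bp, lies inside GRMZM2G448142 in every list and overlaps GRMZM2G448151 over at least 99.8% of its length, yet it was assigned to GRMZM2G448142. Position 8, of 2408 to 2484 bp, begins 53 to 61 bp upstream of GRMZM2G448142 and fills most of the 2941 bp that separate it from the divergent gene GRMZM2G448161. Position 5 lies 6090 to 6116 bp upstream of GRMZM2G448151 and 1912 to 1938 bp beyond the 3′ end of GRMZM2G448142. Thus, by overlap, most of position 6 lies in the body of GRMZM2G448142, whichever gene the lists name. Position 7 lies in GRMZM2G448142 and almost wholly in GRMZM2G448151 too, so overlap does not assign it to 1 of them.

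The other assigned genes were GRMZM2G090126 on the left and GRMZM2G448161, GRMZM2G448174 and GRMZM2G448344 on the right. GRMZM2G090126, from 203878206 to 203880656 on the minus strand, was assigned positions 1 to 3, which lie upstream of it and begin between 1895 and 5797 bp from its start, and no peak overlaps it. Position 4 had no assigned gene in any list. GRMZM2G448161, from 203913752 to 203918178 on the plus strand, was assigned positions 9 and 10, and position 10 lies at the same time inside GRMZM2G448174, from 203916279 to 203925824 on the minus strand. GRMZM2G448174 was assigned position 11, and GRMZM2G448344, from 203925927 to 203931405 on the minus strand, was assigned positions 12 and 13, all within the gene bodies.

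All values below are log2(ChIP/Input) as the authors deposited them, 1 value for each peak and time point. The lists hold no replicate values and no read counts, so the values carry no error and the depth behind a peak is unknown. Differences between peaks, times or genotypes could therefore not be set against replicate spread.

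Position 6, the broad peak over the 3′ part of GRMZM2G448142, had log2(ChIP/Input) of 2.84 (ZT3), 2.82 (ZT9) and 3.65 (ZT15) in B73. In Mo17 it had 2.31, 2.30 and 2.75 at the same time points. In both inbreds ZT3 and ZT9 were nearly equal and ZT15 stood above them, by 0.81 over ZT3 in B73, which is a ChIP/Input ratio 1.75 times as high. In BM the values were 2.61 (ZT3), 2.17 (ZT9) and 1.77 (ZT15). In MB they were 2.58, 1.92 and 2.13. Both hybrids were highest at ZT3, and at ZT15 both lay below both inbreds.

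Position 7, where the 2 genes overlap, had log2(ChIP/Input) of 1.96 (ZT3), 2.23 (ZT9) and 2.69 (ZT15) in B73. In Mo17 it had 2.03, 2.18 and 2.22, a rise of 0.19 from ZT3 to ZT15 that was smaller than the 0.44 at position 6. In the hybrids it had 2.04, 2.10 and 1.61 in BM and 2.18, 1.76 and 1.93 in MB. The highest value was thus at ZT15 in both inbreds, at ZT9 in BM (by 0.06) and at ZT3 in MB (by 0.25).

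Position 8, directly upstream of GRMZM2G448142, had log2(ChIP/Input) of 1.95 (ZT3), 2.07 (ZT9) and 2.44 (ZT15) in B73 and of 1.75, 1.70 and 1.92 in Mo17. In BM the values were 1.59, 1.54 and 1.29, and in MB 1.83, 1.37 and 1.59. Its order of genotypes at ZT15 was B73, Mo17, MB and BM, the same order as at positions 6 and 7.

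Position 5, upstream of GRMZM2G448151 and without a peak in BM, had log2(ChIP/Input) of 2.42 (ZT3), 1.64 (ZT9) and 2.64 (ZT15) in B73. It had 2.33, 1.45 and 2.06 in Mo17 and 2.31, 1.48 and 2.06 in MB. It differed from position 6 in its low ZT9 value in the inbreds, with ZT9 minus ZT3 at -0.79 in B73 and -0.87 in Mo17.

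The highest values of the row belonged to position 1, a narrow peak of 377 to 398 bp upstream of GRMZM2G090126. There B73 had log2(ChIP/Input) of 3.52 (ZT3), 3.89 (ZT9) and 4.75 (ZT15), Mo17 had 2.85, 3.46 and 3.32, BM had 3.03, 2.96 and 2.62, and MB had 3.13, 2.64 and 2.86. The lowest value of the row was 0.73, at position 4 in MB at ZT9. Position 12, inside GRMZM2G448344, was the only position where a hybrid was highest at ZT15, with 2.64, 2.37 and 2.76 in MB against 2.85, 2.56 and 2.08 in BM. The remaining positions, 2, 3, 4, 9, 10, 11 and 13, had values from 0.73 to 3.07, the latter at position 10 in B73 at ZT15. Position 10, in the overlap of GRMZM2G448161 and GRMZM2G448174, had the widest lead of ZT3 in BM, with 2.65 (ZT3), 1.93 (ZT9) and 1.71 (ZT15). Position 11, inside GRMZM2G448174, was where the hybrids differed most from each other at ZT3, with 1.79 in BM and 2.59 in MB. Over the row, the medians of log2(ChIP/Input), in the order of the time points, were 1.96, 2.07 and 2.57 in B73 and 2.09, 1.93 and 2.18 in Mo17. They were 1.89, 1.74 and 1.58 in BM and 2.18, 1.51 and 1.78 in MB. The standard deviation over positions was between 0.49 and 0.86 in every list and time point.

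**Figure D2:**
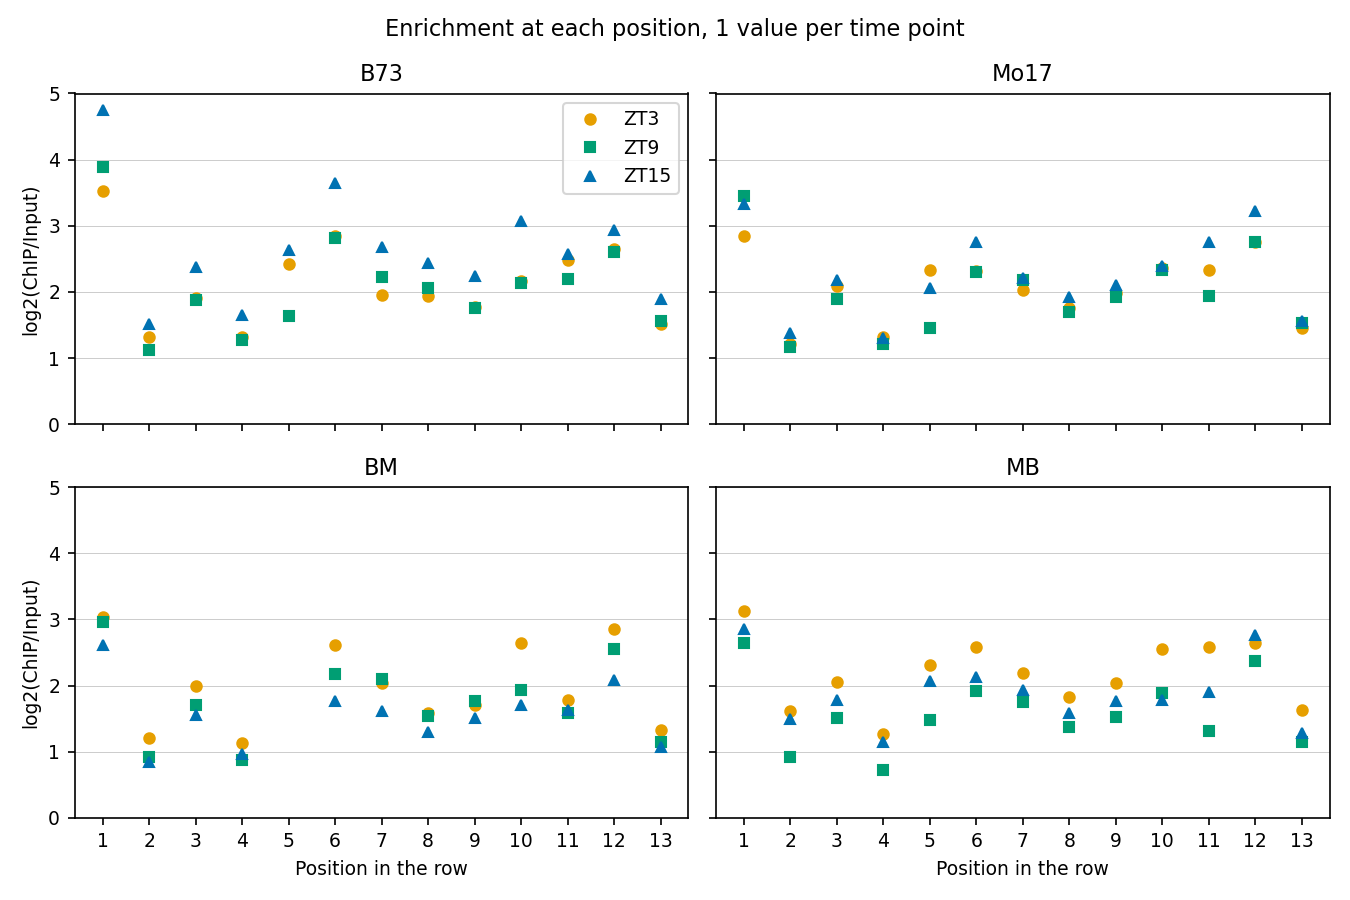
log2(ChIP/Input) at each of the 13 positions of the row (x axis) in B73, Mo17, BM and MB, with circles for ZT3, squares for ZT9 and triangles for ZT15, 1 value each. In B73 the triangles are highest at all 13 positions, in BM they are highest at 0 of 12, and position 1 reaches 4.75 in B73.

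The phase of a peak, the time point of its highest value, was ZT15 at 13 of 13 positions in B73 and at 10 of 13 in Mo17, against 26.3% and 23.0% of all peaks in those lists. In Mo17, positions 4 and 5 were highest at ZT3 and position 1 at ZT9. In the hybrids the phase was ZT3 at 10 of 12 positions in BM and at 12 of 13 in MB, against 63.2% and 51.7% of all peaks in those lists. The remaining positions were 7 and 9, at ZT9 in BM, and 12, at ZT15 in MB. The lead of the highest over the next value was mostly small. Its median was 0.37 in B73 and 0.13 in Mo17, with 0.18 in BM and 0.27 in MB, and it reached 0.5 at 3, 0, 1 and 2 positions, respectively.

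The phase of the row in the hybrids depended on the level of each list as a whole. The median log2(ChIP/Input) of a list fell between ZT3 and ZT15 from 1.48 to 1.33 in B73 and from 1.34 to 1.17 in Mo17, and from 1.79 to 0.82 in BM and from 1.52 to 0.95 in MB. When the median of each list was subtracted at each time point, the phase was ZT15 at 13 of 13 positions in B73 and 12 of 13 in Mo17, and at 12 of 12 in BM and 11 of 13 in MB. The shares of all peaks with a ZT15 phase were then 33.4%, 36.9%, 33.7% and 34.4%, in the same order. Relative to the list median, most positions were thus highest at ZT15 in all 4 genotypes, while in the deposited values most were highest at ZT3 in both hybrids. The median of the row stood above the list median at ZT15 by 1.24 in B73 and 1.02 in Mo17, with 0.76 in BM and 0.83 in MB. At ZT3 the same difference was 0.48, 0.75, 0.09 and 0.67 in that order. With ZT15 left out, an alternative chosen after seeing the data, ZT3 was above ZT9 at 10 of 12 positions in BM and 13 of 13 in MB, and at 9 of 13 in each inbred. The shares of all peaks with ZT3 over ZT9 were 66.3% for the BM list, 58.1% for MB, 47.8% for B73 and 39.6% for Mo17.

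Within each list most positions of the row ranked best at ZT15, 13 of 13 in B73 and 11 of 13 in Mo17, and 9 of 12 in BM and 10 of 13 in MB. Of all peaks, 32.0%, 31.4%, 30.2% and 29.0% ranked best at ZT15 in these lists, in that order. At ZT15, the median percentile of the row, the percentage of the list with a lower value, was 97.4 in B73 and 90.7 in Mo17, with 89.9 in BM and 85.6 in MB. At ZT3 it was 77.0, 85.3, 56.7 and 85.3 in the same order, so that MB hardly differed between ZT3 and ZT15, and at ZT9 it was 83.9, 66.8, 67.1 and 53.8. All 51 peaks ranked in the upper part of their list at ZT15, the lowest being position 2 in BM with 51.2% of the list below it. Position 1 was rank 3 of the B73 list at ZT15 and rank 12 in Mo17, with rank 9 in BM and rank 8 in MB. For position 6 the ranks at ZT15 were 15 in B73 and 28 in Mo17, with 154 in BM and 74 in MB. By width, position 6 was rank 25 in B73 and 23 in Mo17, with 25 in BM and 34 in MB. In the same order of lists, position 7 had ranks 65, 173, 260 and 166 at ZT15, and position 8 ranks 131, 383, 609 and 412. When each peak was ranked by the highest of its 3 values instead, the median percentile of the row was 95.4 in B73 and 76.7 in Mo17, with 39.7 in BM and 75.8 in MB. The BM value moved most with the ranking, to 86.9 when the mean of the 3 values was ranked and to 81.0 after median centring.

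**Figure D3:**
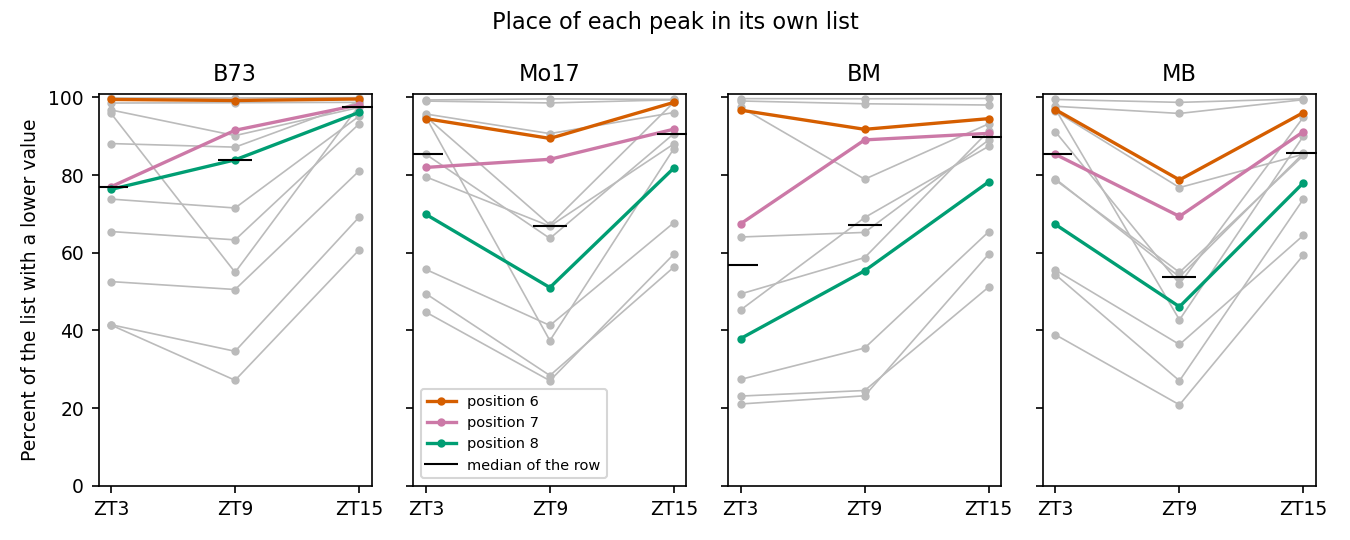
Percent of the peaks of the same list with a lower value (y axis) for each peak of the row at ZT3, ZT9 and ZT15, in B73, Mo17, BM and MB, with positions 6, 7 and 8 in colour, the others in grey and the median of the row as a black dash. The dash is highest at ZT15 in every list, though hardly above ZT3 in MB, at 97.4% in B73 and 90.7% in Mo17, with 89.9% in BM and 85.6% in MB.

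Hybrids were compared with inbreds at the 12 positions present in all lists, within the 471 loci with overlapping peaks in all 4 lists. The difference is the mean of BM and MB minus the mean of B73 and Mo17, in log2 units. At ZT15 it ran from -1.30 at position 1 to -0.29 at position 2, with a median of -0.67, against a median of -0.43 over all 471 loci. At ZT9 it ran from -0.87 to -0.20 with a median of -0.36, against -0.24 over all loci. At ZT3 it ran from -0.22 to 0.34 with a median of 0.01, against 0.10 over all loci. Position 6 had differences of 0.02 (ZT3), -0.52 (ZT9) and -1.25 (ZT15), and the last was the 15th lowest of the 471 loci. Position 7 had 0.12, -0.28 and -0.68, and position 8 had -0.14, -0.43 and -0.74.

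Both hybrids lay below both inbreds at 11 of the 12 positions at ZT15, where 55.2% of all loci did. The exception was position 2, where MB was not below Mo17. At ZT9 this was so at 11 of 12 positions, all but position 9, against 39.1% of all loci, and at ZT3 at 1 of 12, position 4, against 9.34%. With the list medians subtracted, the median difference of the row became -0.24 (ZT3), -0.18 (ZT9) and -0.31 (ZT15), and both hybrids lay below both inbreds at 3, 5 and 9 of the 12 positions, against 27.2%, 19.1% and 28.9% of all loci. The count at ZT3 was thus near the share of all loci.

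**Figure D4:**
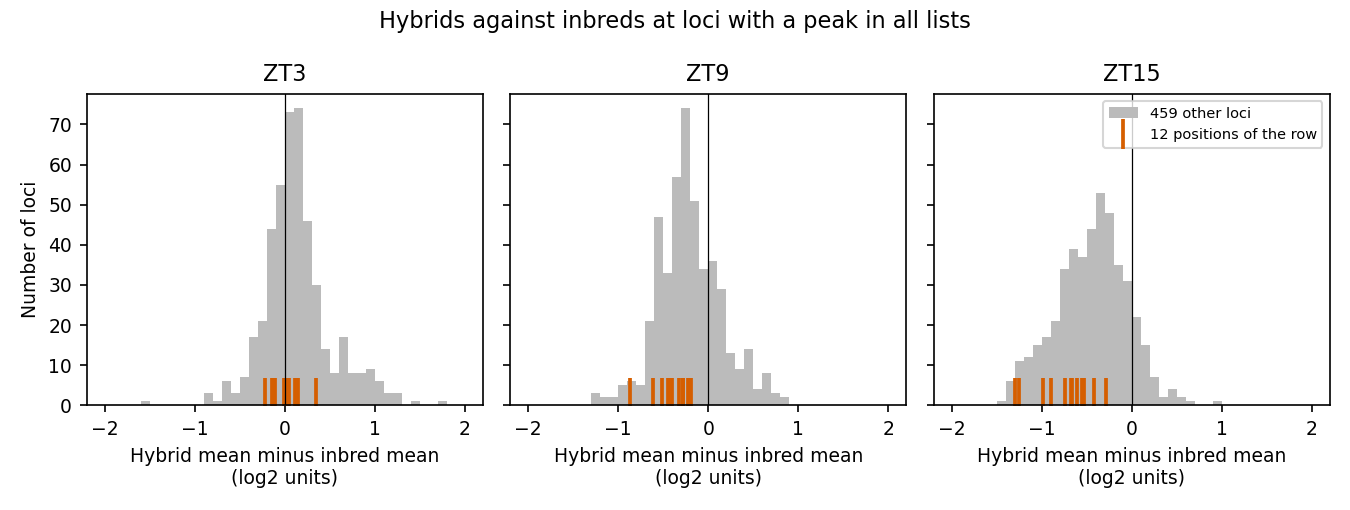
Hybrid mean minus inbred mean of log2(ChIP/Input), with a panel for each time point, as a histogram over the other loci with a peak in all lists (grey, number of loci on the y axis) and as ticks for the 12 positions of the row (orange, at an arbitrary height). The ticks straddle 0 at ZT3 and lie between -1.30 and -0.29 at ZT15.

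ZT15 exceeded ZT3 in both inbreds and fell short of it in both hybrids at 10 of the 12 positions, and 27.6% of the 471 loci had this pattern. The exceptions were position 4, where ZT15 minus ZT3 was -0.03 in Mo17, and position 12, where it was 0.12 in MB. With the list medians subtracted, 0 of the 12 positions had the pattern, against 4.67% of all loci, and 10 of 12 had ZT15 over ZT3 in every list, against 27.6% of all loci.

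Between the reciprocal hybrids, BM minus MB at ZT15 ran from -0.68 to -0.07. Its median was -0.26, near the median of -0.24 over all 471 loci. At ZT9 the median was 0.19, against 0.10 over all loci, and at ZT3 it was -0.14, against 0.03. Between the inbreds, B73 minus Mo17 at ZT15 had a median of 0.33, against 0.06 over all loci. With the list medians subtracted, the ZT15 medians were -0.14 for the hybrids and 0.17 for the inbreds. Over all loci they were then -0.11 and -0.11. As deposited, the inbred difference at ZT15 was largest at position 1, with 1.42, and at position 6, with 0.90. Positions 11 and 12 had Mo17 above B73, with B73 minus Mo17 at -0.19 and -0.28. All 12 positions share the libraries of a genotype, and their differences are not independent of each other.

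The positions resembled one another over the 12 combinations of genotype and time. Pearson's r between 2 positions had a median of 0.79 over the 66 pairs and ran from 0.46 to 0.96, while over all pairs of the 471 loci its median was 0.30. Positions 6 and 8 were the most alike pair in the row. All points share the same libraries, and neighbouring peaks may share local chromatin, which was not measured here, so these values describe likeness only.

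Outside the row, the chromosome held no peak for 546264 bp to the left in B73 and for 1075464 bp to the right. The shortest gap in any list was 505490 bp, to the right in BM. None of the nearest peaks beyond those gaps, 1 on each side in each list, was highest at ZT15. To the left, their values in the order of the time points were 1.57, 0.98 and 0.77 in B73, 1.16, 2.11 and 1.07 in Mo17, 1.76, 2.43 and 0.72 in BM, and 0.72, 2.31 and 0.75 in MB. To the right they were 0.07, 0.73 and 0.22 in B73, 0.91, 2.10 and 0.70 in Mo17, 1.82, 0.86 and 0.63 in BM, and 1.45, 2.08 and 0.94 in MB. The BM peak to the right was highest at ZT3 and lowest at ZT15, as were most positions of the row in BM.

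Among the 418 genes with a peak in all 4 lists, each taken at its highest value over its peaks, the 3 most like GRMZM2G448142 over the 12 values were GRMZM5G838352 on chromosome 4 with r of 0.96, GRMZM2G176155 on chromosome 1 with 0.94 and GRMZM2G078606 on chromosome 6 with 0.94. The levels of GRMZM5G838352 were also close to those of GRMZM2G448142, with a root mean square difference of 0.08 log2 units, whereas GRMZM2G176155 lay higher throughout, with 0.69. For GRMZM2G448151 they were GRMZM2G115566 with 0.99 and GRMZM2G072419 with 0.98, both on chromosome 2, and GRMZM2G475437 on chromosome 1 with 0.97. GRMZM2G115566 had log2(ChIP/Input) of 2.74, 2.71 and 3.55 in B73 and 2.36, 2.07 and 1.71 in BM, next to 2.84, 2.82 and 3.65 in B73 and 2.61, 2.17 and 1.77 in BM for GRMZM2G448151. The median r to the other 417 genes was 0.30 for GRMZM2G448142 and 0.29 for GRMZM2G448151. The profile of GRMZM2G448142 is position 7 throughout, which also overlaps GRMZM2G448151. That of GRMZM2G448151 is position 6, or position 5 for Mo17 at ZT3, and neither overlaps GRMZM2G448151. Position 6 lies mostly in GRMZM2G448142. By these assigned peaks the 2 genes had an r of 0.87 with each other, so neither was the closest match of the other. These are likenesses over 12 values from shared libraries. They also depend on how peaks are combined, since with the mean over a gene's peaks in place of the highest, 1 of the 3 genes named for GRMZM2G448142 and 0 of the 3 named for GRMZM2G448151 were still among the 3 most like.

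**Figure D5:**
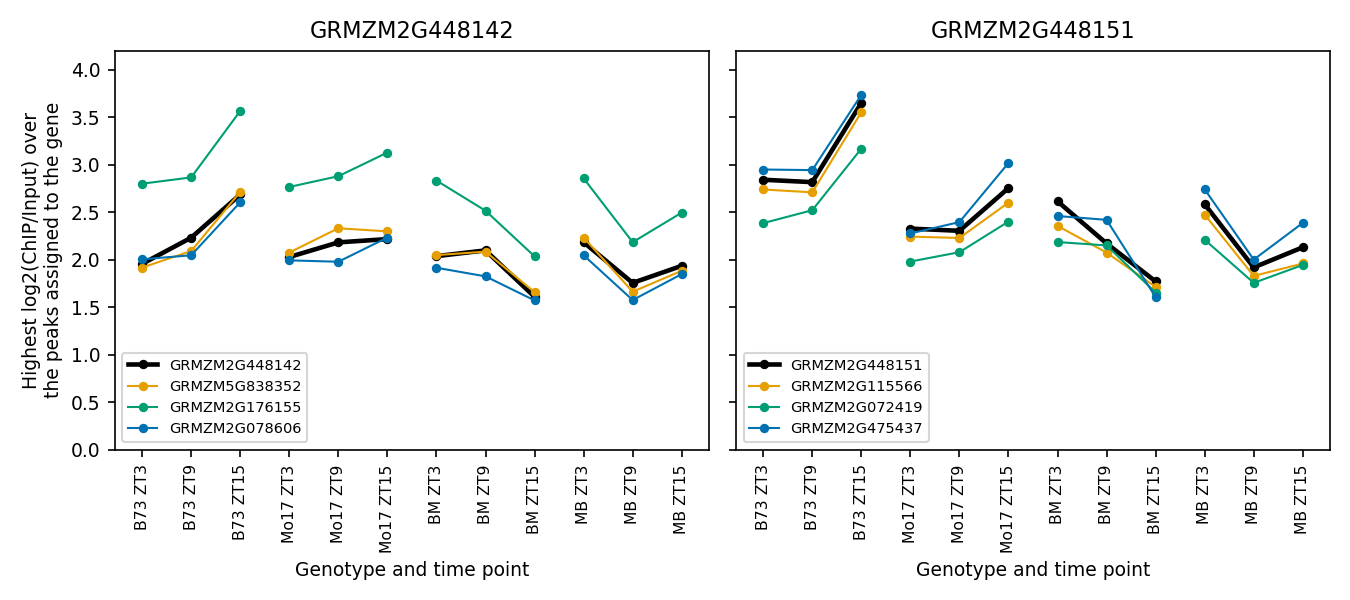
Highest log2(ChIP/Input) over the assigned peaks (y axis) of GRMZM2G448142 (left, black) and GRMZM2G448151 (right, black) and of the 3 genes most like each by the highest value over peaks (colours), over the 12 combinations of genotype and time point (x axis). The profiles rise to ZT15 in B73, where GRMZM2G448151 reaches 3.65, and fall to ZT15 in BM, where it has 1.77. By assignment, the profile of GRMZM2G448142 is position 7 and that of GRMZM2G448151 is mostly position 6, which lies outside GRMZM2G448151.

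GRMZM2G448142 was also read beside 8 other genes that the study groups under photosynthesis and carbon fixation. Among the 8, the study describes GRMZM2G398288 as a putative phospholipid-transporting ATPase. The study took these genes up in connection with ZmCCA1 binding, so how many have a peak is not a result about them. GRMZM2G448142 and GRMZM2G427369 had an assigned peak in all 4 lists. GRMZM2G427369, on chromosome 5, had log2(ChIP/Input) of 2.13, 1.61 and 2.38 in B73 and 2.24, 1.46 and 2.35 in Mo17, and of 2.38, 1.47 and 1.26 in BM and 2.25, 1.29 and 1.67 in MB. Its phase was ZT15 in the inbreds and ZT3 in the hybrids, and in the hybrids it was ZT3 also with the list medians subtracted, unlike positions 7 and 8. GRMZM2G394732, on the same chromosome, had peaks in the inbreds only in these lists, highest at ZT15 with 5.35 in B73 and 5.27 in Mo17. GRMZM2G129513 had a peak in B73, GRMZM2G398288 in B73, Mo17 and BM, and GRMZM2G126988 had 2 in BM and 1 in MB. None of these was highest at ZT15 in the deposited values. With the list medians subtracted, the BM peak of GRMZM2G126988 with 2.30, 1.68 and 2.00 was highest at ZT15. The rest were highest at ZT9 either way. GRMZM2G033885, GRMZM2G121612 and GRMZM2G412611 had no assigned peak. For GRMZM2G033885 and GRMZM2G121612 the study reported ZmCCA1 binding by ChIP-qPCR and by mobility shift assays in vitro. At GRMZM2G394732 and GRMZM2G427369 it described a shift of ZmCCA1 binding in the hybrids, with the ChIP-seq signal displayed. It also reported ChIP-qPCR binding at GRMZM2G394732 in a ZmCCA1b overexpression line and its hybrid with Mo17. A gene without a listed peak may thus still be bound.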

How the data were processed

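The 4 peak lists, 1 per genotype, were used. Per the paper's methods, the authors aligned reads with Bowtie to AGPv2 or, for Mo17, to a reference-guided assembly (hybrid reads to both, keeping the best alignment), kept unique concordant pairs, removed duplicates, down-sampled libraries to equal depth, called peaks with MACS2 2.0.1 (version from the submitters' processing notes) against input, kept peaks overlapping in both replicates, merged time points and assigned genes within 10 kb. The authors deposited log2 ratios of ChIP to input, and how replicates were combined is not given in the sources used here. Keeping unique pairs only lowers coverage where sequence is repeated, and the extent of that at this locus was not assessed.

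Values were used as deposited. Peaks of different lists that overlapped by at least 1 bp formed a locus, and a locus was taken at its highest value per list. Percentiles and medians are over the whole list. The named genes were the 2 genes of the locus, other genes assigned in the window, the 3 with the highest Pearson's r to each, and listed photosynthesis genes with a peak. The window, the gene lists and the comparisons were chosen with earlier results of these data known. No gene ID of the window matched the RefSeq table (0 of 6). Functions were tested on simulated lists. Alternatives covered centring, the lead, the peaks included, ranking, matching and the likeness measure. Python 3.11.15, numpy 2.4.6, pandas 2.3.3, scipy 1.17.1 and matplotlib 3.10.9 were used.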

Additional observations from a re-analysis of the deposited data

Results flagged for a closer look

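The time course of the row ran in opposite directions in inbreds and hybrids. ZT15 minus ZT3, as the median over the row, was 0.46 in B73 and 0.17 in Mo17 and -0.39 in BM and -0.27 in MB, and at 10 of the 12 positions present in all lists both inbreds went up and both hybrids down. The difference was not tested, because each list has a single value per time point. The median of ZT15 minus ZT3 over each whole list was -0.11 in B73 and -0.10 in Mo17, with -0.87 in BM and -0.49 in MB. With list medians subtracted, 0 of the 12 positions showed opposite directions, against 4.67% of the 471 loci.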

How the results depend on the processing

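Centring each list on its median or mean moved the phase by over 1.5 times in the hybrids. The percentage of the row at ZT3, 83.3 in BM and 92.3 in MB, became 0 and 15.4 with the median and 16.7 and 23.1 with the mean, while the percentage at ZT15 in B73 and Mo17 stayed within 1.5 times its value. It was 50 in BM for the 2 peaks that overlap GRMZM2G448142. When the mean of the 3 values was ranked in place of the highest, the median percentile was 97.4 in B73 and 90.2 in Mo17, with 86.9 in BM and 93.3 in MB. After median centring it was 96.8, 87.6, 81.0 and 86.3 in the same order. Among peaks with an assigned gene it was 79.4 in Mo17, 46.7 in BM and 79.5 in MB, and among chromosome 1 peaks 93.7 in B73 and 41.6 in BM. The median of hybrids minus inbreds at ZT3 reversed to -0.24 with median and -0.16 with mean centring, and at ZT15 it shrank to -0.31 and -0.33. With the mean over peaks, 1 of the 3 genes most like GRMZM2G448142 and 0 of the 3 most like GRMZM2G448151 were shared with those named. The cause of these changes was not tested, beyond that centring removes the level of a list.

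A lead of at least 0.5 left 0 positions in Mo17, so no value was given there. No paired analysis was possible because the lists hold no replicate values, and replicates could not be left out for the same reason. Reads behind a peak are unknown, so the depth limit of a value cannot be given.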

Other observations

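The pattern of ZT15 over ZT3 in both inbreds and under it in both hybrids was also found in other groups of neighbouring loci in the deposited values. Stretches of 1 Mb were counted. The stretch with the row held 10 such loci of 12, and a stretch at 130 Mb of chromosome 1 held 9 of 12. Adjoining stretches at 209 and 210 Mb of chromosome 5 held 9 of 9 and 7 of 10, and a stretch at 160 Mb of chromosome 6 held 5 of 6. Crowded loci did not always have the pattern, since a stretch at 72 Mb of chromosome 9 held 3 such loci of 34. GRMZM2G475437, among the genes most like GRMZM2G448151, lies in the stretch at 130 Mb of chromosome 1. GRMZM2G078606, among those most like GRMZM2G448142, lies in the chromosome 6 stretch. Both genes were picked for likeness to profiles that have the pattern, so their place in these stretches is not a separate result. The chromosome 5 stretch at 209 Mb holds GRMZM2G427369 and GRMZM2G394732. These stretches were picked after their values were seen.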
